A study of Mus musculus with 24 samples.

Results

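The miR-29 family of microRNAs (miRNAs) was followed in mouse subcutaneous adipose tissue, a white fat depot, during high-fat and control feeding. Its members were taken by name and comprised 7 of the 1907 mature miRNA names in the deposited table of small RNA counts: mmu-miR-29a-3p, mmu-miR-29a-5p, mmu-miR-29b-3p, mmu-miR-29b-1-5p, mmu-miR-29b-2-5p, mmu-miR-29c-3p and mmu-miR-29c-5p (the species prefix is left out below). High-fat feeding had lasted 1 day in 4 libraries, 1 week in 4 and 3 weeks in 4, and the same held for the control diet, which gave 24 libraries in 6 groups. The title of the series concerns lower DICER, the enzyme that cuts miRNA hairpins, in adipose tissue of high-fat-fed mice. The labels name the tissue, the diet and the time but no strain, age, genotype or feed composition, and do not say whether every library came from its own animal, so the p-values below measure the spread between these libraries, which could be technical alone.

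DICER cuts each miRNA hairpin into a pair of arms, 5p and 3p, and usually the more abundant arm is held by an Argonaute protein and represses messenger RNAs that pair with its seed, the bases 2 to 8. The 3p arms of miR-29 are known for repressing messenger RNAs of collagens, elastin, fibrillin and other matrix proteins, and of the de novo DNA methyltransferases, and the family is known to be lowered by TGF-beta in fibrotic tissue. In rodent adipocytes, muscle and liver, raised miR-29 has been tied to weaker insulin signalling.

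The mature sequences show which members share targets and which can be confused in sequencing. All 7 were found in RefSeq (GRCm38.p6) and are printed 5′ to 3′ with the seed in capitals. The 3p arms shared 1 seed, and of the mature mouse miRNAs in the RefSeq table only these 3 carried it.
miR-29a-3p: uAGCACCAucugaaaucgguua
miR-29b-3p: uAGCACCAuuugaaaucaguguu
miR-29c-3p: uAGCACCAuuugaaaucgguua
Each of the 4 5p arms had a seed of its own.
miR-29a-5p: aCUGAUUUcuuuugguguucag
miR-29b-1-5p: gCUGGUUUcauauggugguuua
miR-29b-2-5p: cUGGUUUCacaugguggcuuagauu
miR-29c-5p: uGACCGAUuucuccugguguuc
With positions counted from 1 at the 5′ end, miR-29c-3p differed from miR-29a-3p by C10U alone (21 of 22 bases identical). The sequence of miR-29b-3p differed from that of miR-29a-3p by C10U, G18A, U21G and A22U and had an added last base. The seed of miR-29b-2-5p was also that of miR-6338.

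A set of 4 genes encodes the family, in pairs on 2 chromosomes (GRCm38, the assembly called mm10). Mir29b-1 (chr6:31063023-31063093, minus strand) and Mir29a (chr6:31062660-31062747, minus strand) lie 275 bases apart. In the GENCODE M21 annotation, Mir29a overlapped no other gene, and Mir29b-1 overlapped part of an exon of the long noncoding RNA Gm27019. The other pair, Mir29b-2 (chr1:195037040-195037120, plus strand) and Mir29c (chr1:195037547-195037634, plus strand), lies 426 bases apart. Both hairpins were inside an exon of the noncoding transcript A330023F24Rik on the same strand and inside the UTR of Cd46 on the opposite strand. The Mir29a hairpin shows how both arms come from 1 transcript, with the 5p arm first and the 3p arm second in capitals.
Mir29a: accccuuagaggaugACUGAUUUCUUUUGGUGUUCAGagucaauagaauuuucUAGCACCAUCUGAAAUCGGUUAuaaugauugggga
The mature miR-29b-3p was the same from Mir29b-1 and Mir29b-2, so its count could hold reads of both genes, whereas the 5p arms told the 2 genes apart. The sources used here do not say how reads with several genomic matches were counted, and the counts of miR-29b-3p, and of miR-29a-3p and miR-29c-3p at 1 base apart, are uncertain to that extent. The same holds for miR-26a-5p, miR-30c-5p, miR-103-3p, miR-199a-3p and miR-365-3p, named below, which have 2 genomic loci each.

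Between 1.99 M and 16.3 M counts (M for mega) were assigned to miRNAs per library, with a median of 5.30 M, and 558 miRNAs, all 7 members among them, passed the filter on low counts. At day 1 the high-fat libraries had 1.99 M to 5.28 M counts and the control libraries 5.36 M to 11.3 M. At week 1 these ranges were 2.54 M to 4.15 M and 5.32 M to 16.3 M, and at week 3 they overlapped. Depth and diet therefore cannot be told apart at day 1 and week 1, above all for members with few counts. Adipocyte-enriched miR-148a-3p stood at 106900 to 266700 CPM (counts brought to a common library size of 1 M with TMM normalization, the scale of all levels below), and of 6 adipocyte marker miRNAs 5 were tested, miR-365-3p being too low. Skeletal muscle markers were present at very unequal levels, from 24.04 to 80430 CPM summed over the list, and of the 6 listed markers 5 were detected in all 24 libraries, while miR-208b-3p had 0 counts in 12. In bulk tissue, fewer cells of a type and less RNA per cell cannot be told apart.

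Most miR-29 reads were 1 member. MiR-29a-3p made up 98.05% of the family's CPM on average (97.37% to 98.63% across the 24 libraries), and the whole family took 0.677% to 1.5% of all counts. Its mean of 9621 CPM placed it 18th of the 558 tested miRNAs, and its highest library was 2.02-fold above its lowest (13350 against 6610 CPM). The order after it was miR-29c-3p (87.3 CPM), miR-29c-5p (63.3), miR-29b-3p (19.1), miR-29a-5p (12.03), miR-29b-2-5p (3.92) and miR-29b-1-5p (1.92). Ligation favours some small RNAs over others, so these are shares of reads and not of molecules.

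The arms of Mir29a were read very unequally, those of Mir29c far less so. For Mir29a, group means (geometric) lay between 641 and 911 reads of miR-29a-3p for each read of the 5p arm. For Mir29c, whose 3p arm differs by 1 base from that of Mir29a, the group means lay between 0.845 and 1.89 reads of the 3p arm for each read of the 5p arm. The 5p arms of Mir29b-1 and Mir29b-2 were both rare, with 2 to 30 counts per library for miR-29b-1-5p. In 1 library (high-fat diet, day 1, replicate 4) that miRNA was under the floor of 3 counts.

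Spread between libraries of a group was small for the dominant member. The within-group SD of miR-29a-3p was 0.28 on the log2 scale, at percentile 20.4 of all tested miRNAs, whose median was 0.43. MiR-29c-3p (0.33), miR-29a-5p (0.36), miR-29b-2-5p (0.37) and miR-29c-5p (0.39) were also below that median, and miR-29b-3p (0.46) and miR-29b-1-5p (0.55) were above it.

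**Figure D1:**
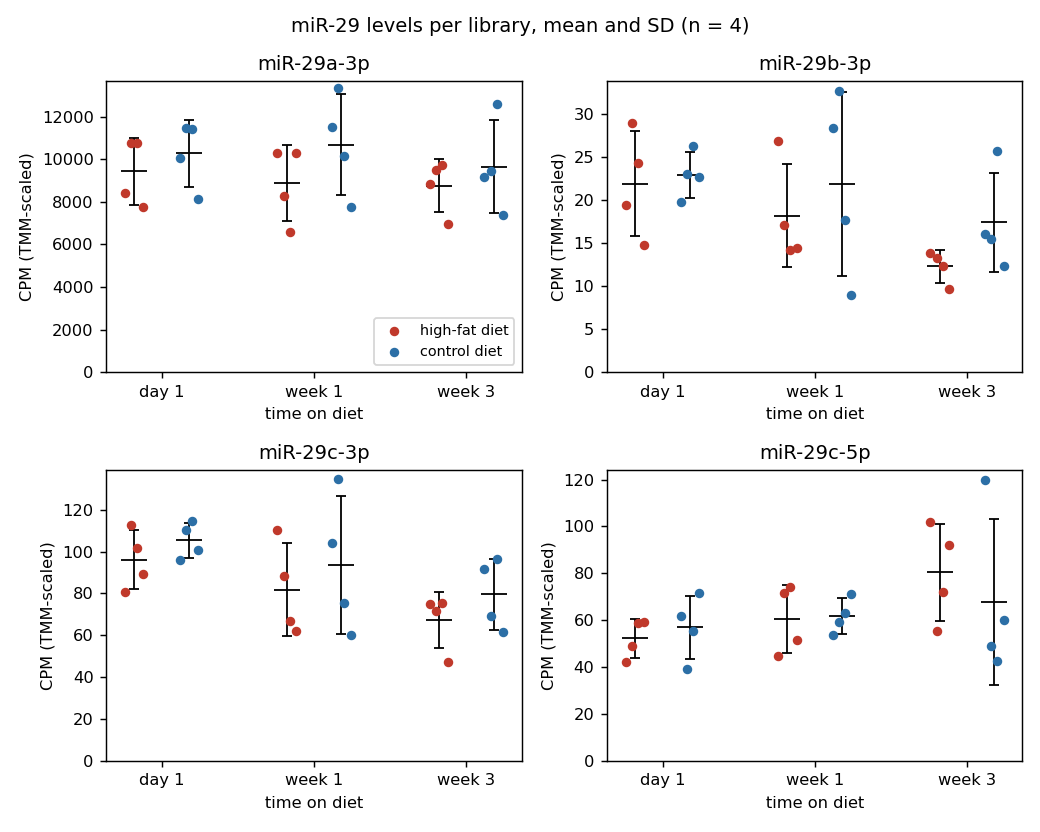
TMM-scaled CPM of miR-29a-3p, miR-29b-3p, miR-29c-3p and miR-29c-5p (y axes, starting at 0) by time on the diet (x axes). Points are libraries, long bars are means and whiskers are SD of 4 libraries. High-fat and control points overlap at every time for these 4 members, and in high-fat libraries miR-29b-3p was at 9.61 to 13.9 CPM at week 3, below all its day 1 values.

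The first comparison asked whether high-fat feeding changed the family. No member passed at any time. At day 1, miR-29a-3p stood at 8411, 10760, 10790 and 7784 CPM in high-fat libraries, against 10090, 11460, 11430 and 8145 CPM in control libraries. The ranges overlapped over most of their width. At week 1 the values were 10310, 8266, 6610 and 10300 CPM in high-fat libraries and 11540, 13350, 10160 and 7756 CPM in control libraries, and at week 3 they were 8848, 9518, 9736 and 6979 CPM in high-fat libraries and 9194, 9462, 12630 and 7380 CPM in control libraries. The high-fat mean was the lower at all 3 times, with overlapping libraries each time. The log2 fold change (high-fat over control, ± SE) was −0.12 ± 0.19 for day 1, −0.27 ± 0.19 for week 1 and −0.14 ± 0.19 for week 3 (adjusted p = 0.982, 0.495 and 0.999, quasi-likelihood test of edgeR, Benjamini-Hochberg adjustment over the 558 tested miRNAs). Averaged over the times it was −0.18 ± 0.11, with a 95% interval of −0.41 to 0.05 (adjusted p = 0.993), so a drop beyond 0.41 lay outside the interval while smaller drops did not.

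The other 3p arms gave similar intervals. The mean diet effect of miR-29c-3p was −0.19 ± 0.14 (95% interval −0.47 to 0.09). For miR-29b-3p it was −0.27 ± 0.18 (−0.65 to 0.11), and the estimates at the single times were −0.06 ± 0.31 at day 1, −0.25 ± 0.32 at week 1 and −0.50 ± 0.32 at week 3. At week 3 miR-29b-3p averaged 12.3 ± 1.89 CPM in high-fat libraries and 17.4 ± 5.76 CPM in control libraries (SD, n = 4 each), and the ranges overlapped (9.61 to 13.9 against 12.4 to 25.7 CPM). Over all 558 tested miRNAs, 0 (0%) passed in edgeR at day 1, at week 1, at week 3 and for the mean of the times. An unadjusted p under 0.05 was reached by 17 of 558 (3.05%) at day 1, 79 (14.2%) at week 1, 10 (1.79%) at week 3 and 18 (3.23%) for the mean, in each case by 0 of the 7 members. DESeq2 called 0 members and 0 miRNAs in all 4 comparisons. Limma-voom called 0 members and, at week 1, 19 of 558 miRNAs (3.41%).

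Estimates below 0 were given by 6 of 7 members at day 1, where 51.6% of all tested miRNAs lay below 0, by 6 of 7 at week 1 (51.4%), by 3 of 7 at week 3 (58.1%) and by 5 of 7 for the mean (59.7%). The family's median estimates were −0.13 for day 1, −0.25 for week 1 and 0.16 for week 3, beside medians of −0.01, −0.02 and −0.05 for all tested miRNAs. At week 3 the members split by arm. The 3p arms were below 0 (−0.14 for miR-29a-3p, −0.24 for miR-29c-3p and −0.50 for miR-29b-3p) and the rarer 5p arms above 0. The week 3 median was the estimate of miR-29a-5p alone, and the split was not tested. At week 1 the summed level of leukocyte marker miRNAs was 5886 to 21680 CPM in high-fat libraries and 11690 to 50220 CPM in control libraries, and 5 of the 7 had an unadjusted p under 0.05, all lower on the high-fat diet, with 0 passing after adjustment. With the muscle and leukocyte marker levels as covariates in edgeR, 0 members and 0 of 558 miRNAs passed at week 1. The part of leukocytes in the week 1 estimates of the miR-29 members was not tested beyond this fit.

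Among the 5p arms, miR-29a-5p was the 1 member whose groups did not overlap at day 1. It stood at 13.8, 11.1, 12.02 and 6.90 CPM in high-fat libraries, against 13.9, 15.2, 16.7 and 17.7 CPM in control libraries. The groups were separated by less than 0.1 CPM, and the lowest library rested on 14 counts. Behind these levels were 14 to 79 counts in high-fat libraries and 88 to 168 in control libraries, whose depths did not overlap either. Of all tested miRNAs, 1.79% had groups without overlap in this comparison, and at week 1 and week 3 the groups of all 7 members overlapped (2.87% and 1.08% of all tested did not). The log2 fold change was −0.51 ± 0.26 (unadjusted p = 0.0658, adjusted p = 0.982, edgeR), and at week 3 it was 0.16 ± 0.26.

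MiR-29b-1-5p, the 5p arm of Mir29b-1, had estimates of opposite sign at the ends of the series, −0.82 ± 0.46 at day 1 and 0.65 ± 0.46 at week 3. The change in its diet effect between day 1 and week 3 was 1.47 ± 0.65 (unadjusted p = 0.0326, adjusted p = 0.991, edgeR). The joint edgeR test over the 3 times gave an unadjusted p of 0.0808 and an adjusted p of 0.567. Levels behind these estimates were 0.974 to 4.25 CPM at week 3 and 0.986 to 1.93 CPM at day 1 in high-fat libraries, against 1.10 to 1.501 CPM at week 3 and 0.761 to 3.58 CPM at day 1 in control libraries. In that change of the diet effect, 1.97% of all tested miRNAs had an unadjusted p under 0.05, and 0% passed. MiR-29b-2-5p was the 1 member with estimates above 0 at all 3 times, and its mean effect was 0.33 ± 0.17 (unadjusted p = 0.0615, adjusted p = 0.993, edgeR). MiR-29c-5p had a mean effect of 0.03 ± 0.16, and its sign at week 1 (−0.03 ± 0.28) turned to positive with RLE size factors or with library totals as the scale.

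**Figure D2:**
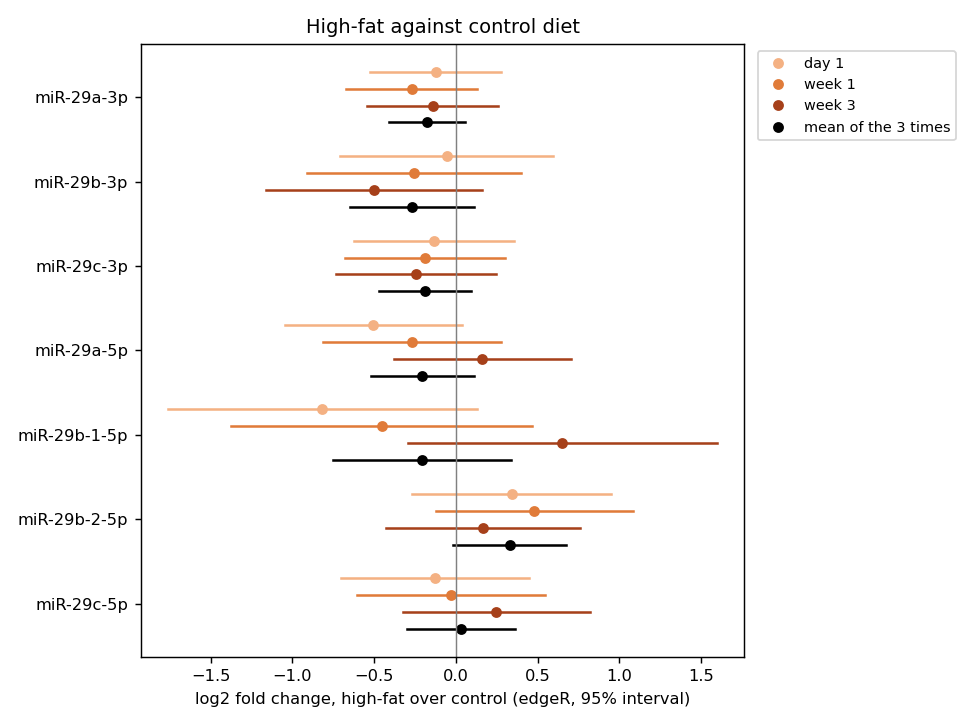
Log2 fold change of the 7 members, high-fat over control diet (x axis), with 95% intervals from edgeR at day 1, week 1 and week 3 and for the mean of the 3 times. Every interval includes 0; the widest belong to miR-29b-1-5p, the rarest member.

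The second comparison followed the family over time, with week 3 set against day 1 in both diets together (8 libraries against 8). The labels do not say whether the mice sampled at week 3 were older than those sampled at day 1, and a change with age and a change with time on a diet cannot be told apart. In this comparison 40 of 558 tested miRNAs (7.17%) passed in edgeR, and 0 of the 7 members. At an unadjusted p under 0.05 there were 156 of 558 (28.0%) and 3 of 7 members, which were miR-29b-3p, miR-29c-3p and miR-29c-5p.

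MiR-29b-3p stood at 13.9, 13.3, 12.35 and 9.61 CPM in high-fat libraries at week 3, against 19.45, 28.96, 24.25 and 14.8 CPM in high-fat libraries at day 1. No week 3 library reached the lowest day 1 library. On the control diet it stood at 16.1, 15.4, 25.7 and 12.4 CPM at week 3, against 19.8, 23.0, 26.2 and 22.7 CPM at day 1, and here 1 week 3 library lay inside the day 1 range. Between 29 and 239 counts per library lay behind these values. The log2 fold change over both diets was −0.61 ± 0.23 (unadjusted p = 0.0120, adjusted p = 0.083, edgeR), with −0.84 ± 0.32 in high-fat and −0.39 ± 0.31 in control libraries.

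MiR-29c-3p stood at 74.8, 71.7, 75.5 and 47.1 CPM in high-fat libraries at week 3, against 80.8, 112.9, 101.7 and 89.3 CPM at day 1. In control libraries the values were 91.6, 69.0, 96.4 and 61.6 CPM at week 3, against 96.2, 110.3, 114.5 and 100.6 CPM at day 1. The high-fat groups did not overlap, and the control groups met only at 96.4 and 96.2 CPM. Its fold change over both diets was −0.46 ± 0.17 on the log2 scale (unadjusted p = 0.0118, adjusted p = 0.083, edgeR). In high-fat libraries 2 of 7 members, miR-29b-3p and miR-29c-3p, had no overlap between week 3 and day 1, as had 11.6% of all tested miRNAs. In control libraries 0 of 7 had none, beside 7.53% of all tested.

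Both miRNAs lay near the threshold, and the call depended on the tool. DESeq2 called miR-29b-3p (−0.64, adjusted p = 0.0485) and miR-29c-3p (−0.48, adjusted p = 0.0445), with 71 of 558 miRNAs (12.7%) called in all. Limma-voom called miR-29b-3p (−0.63, adjusted p = 0.0318) and miR-29c-3p (−0.50, adjusted p = 0.0315), with 99 of 558 (17.7%) called. Without replicate 4 of the control diet at week 1, edgeR also called miR-29b-3p (−0.64, adjusted p = 0.0349).

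MiR-29a-3p, which shares the seed of both, had a log2 fold change over time of −0.10 ± 0.14 (95% interval −0.38 to 0.19, adjusted p = 0.684, edgeR). MiR-29c-5p had an estimate of the opposite sign to its partner arm, 0.44 ± 0.20 (unadjusted p = 0.0362, adjusted p = 0.151, edgeR), and without replicate 1 of control week 3 it was 0.19 (adjusted p = 0.526). It stood at 102, 55.5, 71.9 and 92.15 CPM in high-fat libraries at week 3, against 42.05, 49.0, 58.6 and 59.2 CPM at day 1. The ranges overlapped between 55.5 and 59.2 CPM, and in control libraries the highest value at week 3 (119.8 CPM) was 1 library, with the other 3 at 42.6 to 60.0 CPM. The remaining members had estimates of −0.25 ± 0.18 (miR-29a-5p), −0.21 ± 0.32 (miR-29b-1-5p) and 0.10 ± 0.21 (miR-29b-2-5p). In the steps week 1 against day 1 and week 3 against week 1 over both diets, 0 members passed in edgeR, as did 5 of 558 miRNAs (0.896%) and 0 of 558 (0%), and 0 members had an unadjusted p under 0.05 (21.1% and 8.42% of all tested). DESeq2 called 0 members in both steps, beside 6.63% and 0% of all tested miRNAs, and limma-voom called 0 members beside 6.27% and 0%.

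Within control libraries alone, week 3 against day 1 gave lower estimates for miR-29a-5p (−0.58 ± 0.26, unadjusted p = 0.0338, adjusted p = 0.311) and miR-29b-1-5p (−0.94 ± 0.43, unadjusted p = 0.0404, adjusted p = 0.326, both edgeR). In high-fat libraries the same contrast gave 0.08 ± 0.27 and 0.52 ± 0.48 for these miRNAs. In edgeR the members under an unadjusted 0.05 there were miR-29b-3p (unadjusted p = 0.0165, adjusted p = 0.235), miR-29c-3p (−0.51 ± 0.24, unadjusted p = 0.0415, adjusted p = 0.299) and miR-29c-5p (0.62 ± 0.28, unadjusted p = 0.0354, adjusted p = 0.296). These within-diet contrasts had 0 of 558 miRNAs passing in high-fat libraries (0%) and 2 of 558 in control libraries (0.358%). An unadjusted p under 0.05 was seen for 3 of 7 members and 15.8% of all tested miRNAs in high-fat libraries, and for 2 of 7 and 14.9% in control libraries.

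**Figure D3:**
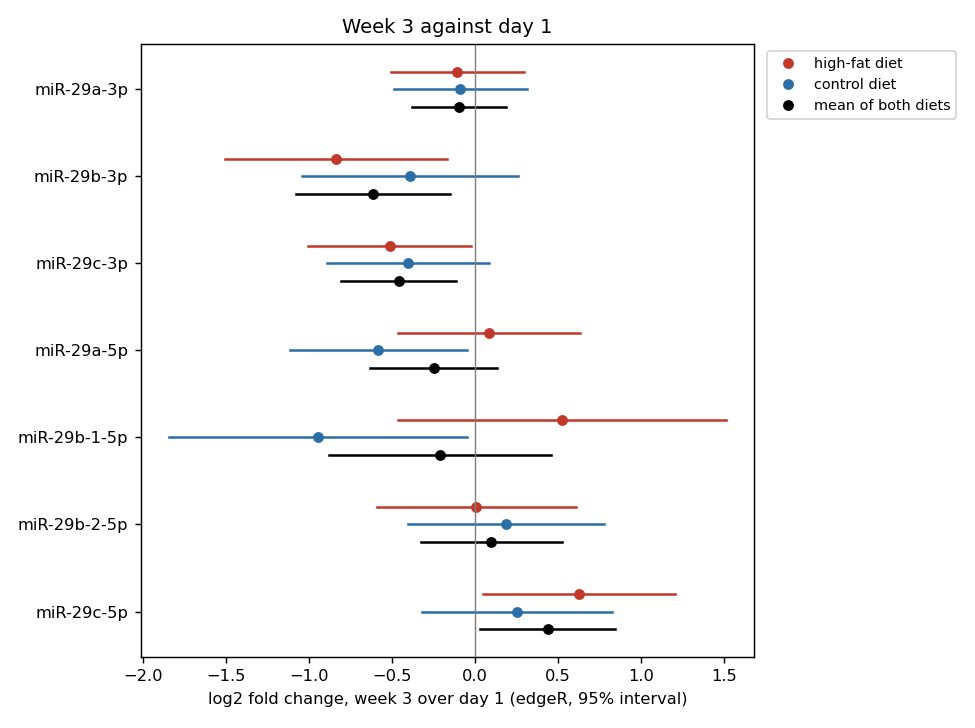
Log2 fold change of the 7 members, week 3 over day 1 (x axis), with 95% intervals from edgeR in high-fat libraries, in control libraries and for the mean of both diets. The mean lies at −0.61 for miR-29b-3p and −0.46 for miR-29c-3p with intervals below 0, and at −0.10 for miR-29a-3p with an interval that includes 0.

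The summed level of skeletal muscle markers was 1225 to 17160 CPM at week 3, against 24.04 to 3022 CPM at day 1 in high-fat libraries, and 2190 to 12900 CPM at week 3, against 129 to 2302 CPM at day 1 in control libraries. All 5 tested markers had estimates above 0 with a median of 2.34 on the log2 scale, 2 had an unadjusted p under 0.05 (28.0% of all tested miRNAs did) and 0 passed in edgeR. Within groups, the mean log2 level of these markers correlated with miR-29c-5p at r = 0.50 and with miR-29a-3p at r = −0.60 across the 24 libraries, which share their scaling and depth. Leukocyte markers had a median of −0.33 between week 3 and day 1 (0 of 7 passed) and fibroblast markers one of 0.28 (0 of 4 passed). Of the erythrocyte markers 1 of 4 passed, beside 7.17% of all tested miRNAs, and it was higher at week 3. All 4 had estimates above 0 with a median of 0.59, and 3 had an unadjusted p under 0.05 in edgeR. With the muscle and leukocyte levels as covariates in edgeR, the change of miR-29b-3p was −0.31 (adjusted p = 0.412), that of miR-29c-3p −0.35 (adjusted p = 0.232), that of miR-29c-5p 0.08 (adjusted p = 0.81) and that of miR-29a-3p 0.16 (adjusted p = 0.446). What muscle contributed to the member levels was not tested beyond this fit.

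Ratios within a library do not depend on how libraries are scaled. For each 1000 reads of miR-29a-3p, high-fat libraries held 1.58, 1.41, 1.27 and 1.4 reads of miR-29b-3p at week 3, against 2.32, 2.70, 2.26 and 1.93 at day 1. Control libraries held 1.76, 1.64, 2.04 and 1.69 at week 3, against 1.96, 2.01, 2.31 and 2.80 at day 1. All high-fat libraries at week 3 lay below those at day 1, and in the control libraries 1 of 4 at week 3 lay inside the day 1 range. Over both diets the log2 ratio was lower by 0.52 at week 3 (difference −0.518, exact permutation p = 0.00122 over 4900 regroupings of time within diet, adjusted p = 0.0098 over 16 ratio tests, two-sided). Ratios of other miRNAs were not computed. No share over all tested miRNAs therefore stands beside the ratio calls, or beside ratios without overlap, here and below. Among single miRNAs, 11.6% of all tested had no overlap between these times in high-fat libraries. The adjustment also covers fewer tests than the 558 of edgeR.

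The ratio of miR-29c-3p to miR-29a-3p, the pair that differs by 1 base, moved in the same direction. For each 1000 reads of miR-29a-3p there were 8.46, 7.54, 7.76 and 6.77 reads of miR-29c-3p in high-fat libraries at week 3, against 9.61, 10.5, 9.43 and 11.5 at day 1. Control libraries gave 9.98, 7.30, 7.64 and 8.36 at week 3, against 9.54, 9.63, 10 and 12.4 at day 1. High-fat groups did not overlap, and 1 control library at week 3 lay inside the day 1 range. The difference in log2 ratio was −0.375 (exact permutation p = 0.00122, adjusted p = 0.0098). These 2 ratios share miR-29a-3p as their denominator and are not independent of each other. Both were called in each of 24 repeats with 1 library left out. Only the repeats without a day 1 or week 3 library probe these calls, since week 1 libraries do not enter the differences.

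Within the Mir29c hairpin the arm ratio changed as well. High-fat libraries had 0.733, 1.29, 1.05 and 0.512 reads of the 3p arm for each read of the 5p arm at week 3, against 1.92, 2.30, 1.73 and 1.51 at day 1. In control libraries the ratios were 0.765, 1.41, 2.26 and 1.03 at week 3, against 1.56, 2.80, 2.07 and 1.41 at day 1. The 3p arm was the more numerous in all 8 libraries at day 1, while at week 3 the 5p arm was the more numerous in 2 high-fat libraries and 1 control library. Over both diets the log2 ratio fell by 0.856 (exact permutation p = 0.00735, adjusted p = 0.0392). With 1 library left out the difference stayed between −1 and −0.74, but the call was lost in 11 of 24 repeats (adjusted p up to 0.0936). Repeats without a week 1 library leave the difference and its permutation p unchanged, so they do not probe this call. All 11 losses came without a day 1 or week 3 library. On the high-fat diet these were replicate 1, 2, 3 or 4 of day 1 and replicate 1 or 4 of week 3. On the control diet they were replicate 2 or 3 of day 1 and replicate 1, 2 or 4 of week 3. Without the 3 libraries with the highest muscle markers the call was lost too (difference −0.74, adjusted p = 0.061). Of these 3, only replicate 4 of high-fat week 3 enters this comparison, so this is the same removal as in the repeats above.

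The difference in the arm ratio of Mir29a did not pass (0.156, exact permutation p = 0.45, adjusted p = 0.813). Its estimates were −0.195 in high-fat and 0.508 in control libraries. With the muscle marker level as a covariate in a least squares fit, a description with no test, the week 3 difference was −0.492 for miR-29b-3p to miR-29a-3p, −0.50 for miR-29c-3p to miR-29a-3p, −0.513 for the arms of Mir29c and 0.405 for the arms of Mir29a. Within groups the muscle level correlated with these ratios at r = −0.07, 0.43, −0.48 and −0.51 in that order.

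**Figure D4:**
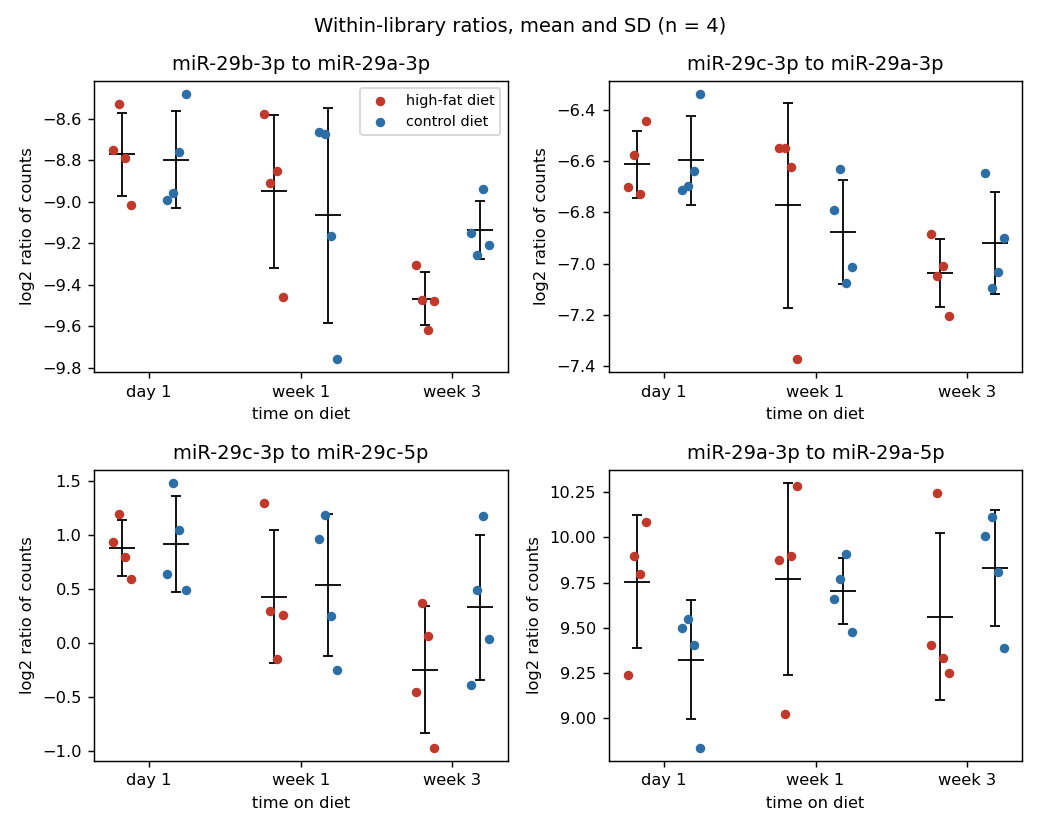
Log2 ratio of counts within each library (y axes) by time on the diet (x axes) for miR-29b-3p to miR-29a-3p, miR-29c-3p to miR-29a-3p, miR-29c-3p to miR-29c-5p and miR-29a-3p to miR-29a-5p. Points are libraries, long bars are means and whiskers are SD of 4 libraries. In high-fat libraries the first 3 ratios do not overlap between week 3 and day 1, and ratios of other miRNAs were not computed for comparison.

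Between the diets, 0 of the 12 ratio tests passed, but an exact permutation of 4 libraries against 4 cannot go below p = 0.0286, so that after adjustment over 16 tests a single diet difference could not have passed on its own. The smallest p belonged to miR-29b-3p against miR-29a-3p at week 3. The log2 ratio averaged −9.47 ± 0.13 in high-fat libraries and −9.14 ± 0.14 in control libraries (SD, n = 4 each), a difference of −0.329 without overlap (exact permutation p = 0.0286, the smallest that 4 against 4 libraries allow, adjusted p = 0.114). At day 1 and week 1 the differences of this ratio were 0.026 and 0.115 (exact permutation p = 0.971 and 0.686). For miR-29c-3p against miR-29a-3p they were −0.014, 0.104 and −0.118 at day 1, week 1 and week 3. Whether the change between day 1 and week 3 differed between the diets (−0.696 in high-fat and −0.34 in control libraries for miR-29b-3p against miR-29a-3p) was not tested.

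The 3p arms varied together from library to library. The log2 levels of miR-29b-3p and miR-29c-3p correlated at r = 0.917 over the 24 libraries and at 0.884 after subtraction of group means. MiR-29a-3p correlated with miR-29b-3p at 0.757 and with miR-29c-3p at 0.712. The arms of a hairpin were less alike, at 0.403 for Mir29a and −0.364 for Mir29c. These are descriptions without a test, and the points share scaling and depth.

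**Figure D5:**
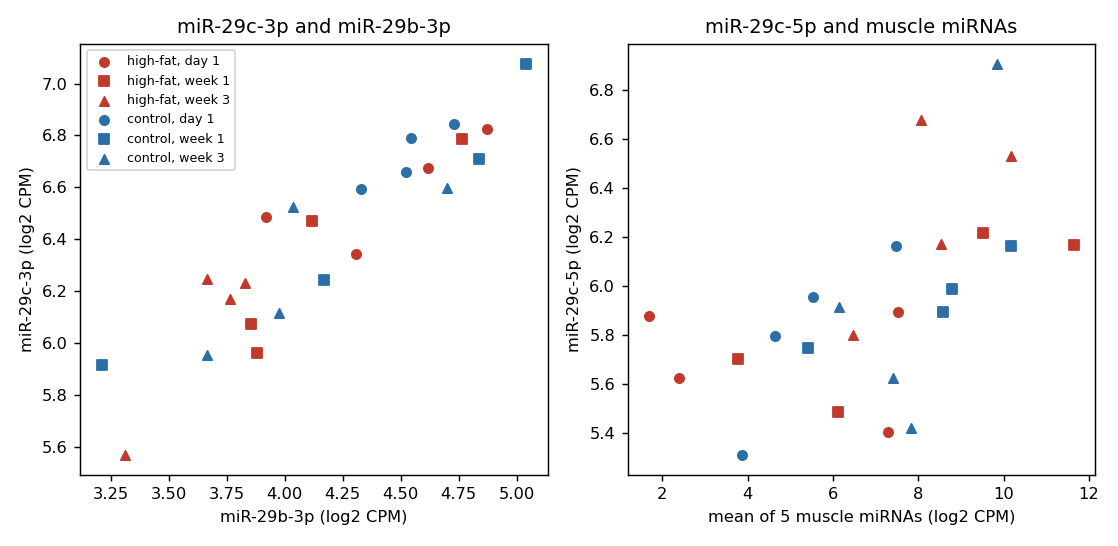
Left, log2 CPM of miR-29c-3p (y axis) against miR-29b-3p (x axis); right, log2 CPM of miR-29c-5p (y axis) against the mean log2 CPM of 5 skeletal muscle miRNAs (x axis). Each point is 1 of 24 libraries, with colour for the diet and shape for the time. The left pair had r = 0.917 over the values shown. After subtraction of group means, which the panels do not show, r was 0.884 for the left pair and 0.502 for the right pair.

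Outside the family, the 5 miRNAs whose log2 levels were most like miR-29a-3p over the 24 libraries were miR-15a-5p (r = 0.669), miR-191-3p (0.646), miR-30b-5p (0.638), miR-32-3p (0.63) and miR-3474 (0.628). After subtraction of group means they were miR-3474 (0.743), miR-339-5p (0.721), myeloid miR-223-3p (0.703), miR-191-3p (0.701) and miR-32-3p (0.697). MiR-29c-3p was most like miR-28a-5p (0.84), miR-350-3p (0.803), miR-186-5p (0.798), miR-28c (0.712) and miR-7b-5p (0.708). Fibroblast marker miRNAs ran against the rarer 3p arms within groups, at r = −0.51 for miR-29b-3p and −0.53 for miR-29c-3p. For the other members r ranged from −0.48 (miR-29a-5p) to 0.43 (miR-29b-2-5p), with miR-29a-3p at −0.26. Such correlations are descriptions without a test, and the libraries share scaling and depth.

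Other miRNAs linked to fibrosis, from a list of 18 that were all tested, were compared as a background for the antifibrotic miR-29. Between the diets, 0 of 18 passed for the mean of the times in edgeR, and 0 had an unadjusted p under 0.05, with a median of −0.05 beside −0.04 for all tested miRNAs. Between week 3 and day 1 over both diets, 1 of 18 passed, beside 7.17% of all tested miRNAs, a share no higher than that background. It was let-7d-5p, which in lung is known to restrain epithelial-to-mesenchymal transition and which rose by 0.57 ± 0.12 (adjusted p = 0.00502, edgeR). MiR-30c-5p, known to restrain connective tissue growth factor in heart, had an estimate of 0.33 ± 0.11 (adjusted p = 0.0669, edgeR). Profibrotic miR-21a-5p had an estimate of −0.38 ± 0.13 (adjusted p = 0.068) and fibroblast miR-199a-3p one of 0.42 ± 0.15 (adjusted p = 0.0789, both edgeR). For miR-26a-5p it was −0.54 ± 0.20 (adjusted p = 0.0836) and for miR-34a-5p 0.28 ± 0.13 (adjusted p = 0.151, both edgeR). In edgeR, 4 of the 18 had an unadjusted p under 0.05 with a higher level and 2 with a lower one (28.0% of all tested miRNAs had such a p). The list median was 0.20, beside 0.05 for all tested miRNAs. The median of the miR-29 members was −0.21, which is the estimate of miR-29b-1-5p, the rarest of them. Their 3p arms were at −0.10 (miR-29a-3p), −0.46 (miR-29c-3p) and −0.61 (miR-29b-3p).

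Of 18 miRNAs linked to insulin signalling and obesity, 17 were tested. In edgeR, 0 passed between the diets for the mean of the times. An unadjusted p under 0.05 was reached by 1, miR-122-5p (0.65 ± 0.29, unadjusted p = 0.0349, adjusted p = 0.993), beside 3.23% of all tested miRNAs. Between week 3 and day 1, 1 of 17 passed, again no more than the 7.17% of all tested miRNAs. It was endothelial miR-126a-3p, known to target insulin receptor substrate messenger RNA, which rose by 0.36 ± 0.11 (adjusted p = 0.0473). MiR-222-3p had an estimate of 0.54 ± 0.17 (adjusted p = 0.0508) and, with the opposite sign, miR-320-3p one of −0.27 ± 0.12 (adjusted p = 0.134, both edgeR). MiR-103-3p and miR-107-3p, which in mice are known to lower insulin sensitivity, had estimates of 0.23 ± 0.11 (adjusted p = 0.164) and 0.31 ± 0.14 (adjusted p = 0.145, edgeR). The list median was 0.29 over time and −0.03 between the diets. Over time, 5 had an unadjusted p under 0.05 in edgeR with a higher level and 1 with a lower one, beside 28.0% of all tested miRNAs.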

How the data were processed

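Per the labels' protocols, total RNA of the adipose tissue was made into small RNA libraries with a NEBNext kit. The authors deposited raw read counts per mature miRNA (1907 names, 24 columns). FastQC, Trim Galore, Bowtie2, featureCounts and build mm10 are named in the submitters' processing notes; their versions, settings and handling of multi-mapping reads were not found in these sources. Groups came from the sample titles. The 7 members and the lists were chosen with earlier results of these data known, and the libraries left out for muscle markers and the muscle covariate of the ratios after the data were seen.

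All names were fitted together with edgeR 4.0.16 in R 4.3.3 (TMM, filterByExpr at 10 counts and a total of 15, robust quasi-likelihood, cell-means model of 6 groups, adjusted p under 0.05). DESeq2 1.42.0 and limma-voom with sample weights (limma 3.58.1) were alternatives. The names filtered out held 0.0179% of the counts. No pair of libraries in a group agreed within sampling noise (lowest chi-square per degree of freedom 150). Ratios used counts plus 0.5 and exact two-sided permutation over libraries, with 70 regroupings for 4 against 4 (smallest p 0.0286) and 4900 for week 3 against day 1 (smallest p 0.000408). Correlations used log2 CPM with a prior count of 2. Other miRNAs were named if among the 5 most correlated with miR-29a-3p or miR-29c-3p, if they passed or ranked in the 4 smallest p-values of a list in either direction, with miR-103-3p chosen after its values were seen. The model script was tested on simulated counts. Sequences came from RefSeq, where 1623 of the 1907 names matched. No molecular identifiers are mentioned, so floors cover counting error only.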

Additional observations from a re-analysis of the deposited data

Results flagged for a closer look

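A single library lay far from the other 3 of its group in 3 of the 66 groups of 4 values examined (7 member levels and 4 ratios in 6 groups), by a gap to its neighbour, as a share of the group's range, beyond Dixon's 95% critical value; chance alone gives about 1 in 20 groups.

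In high-fat libraries at week 3, replicate 4 had 47.07 CPM of miR-29c-3p, with the others at 71.68, 74.77 and 75.49 CPM (gap 0.866 of the range); this library had the second highest muscle marker level of all 24, and without the 3 highest the ratio of miR-29c-3p to miR-29a-3p was still lower at week 3 than at day 1 (−0.35, exact permutation, adjusted p = 0.0163). In the same group, replicate 2 had a log2 ratio of miR-29a-3p to miR-29a-5p of 10.247, with the others at 9.253, 9.335 and 9.407 (gap 0.845), resting on 29 counts of the 5p arm. In high-fat libraries at week 1, replicate 4 had a log2 ratio of miR-29c-3p to miR-29a-3p of −7.373, with the others at −6.622, −6.548 and −6.547 (gap 0.909); week 1 does not enter the comparison of week 3 with day 1.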

How the results depend on the processing

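Members were called in no diet comparison under any alternative. For week 3 against day 1 over both diets the number called was 0 in edgeR, 2 in DESeq2 and 2 in limma-voom, and 0 to 1 with 1 library left out; over all tested miRNAs it was 40, 71 and 99, with 19 of 1467 without the filter, 82 with muscle and leukocyte covariates and 20 to 46 with 1 library left out (20 without replicate 1 of control week 3). In high-fat libraries alone it was 0 in edgeR, 11 in DESeq2 and 13 in limma-voom, and in control libraries 2, 6 and 4. Between the diets at week 1 edgeR called 0 miRNAs, but 31 without the 3 libraries with the highest muscle markers and 22 without replicate 4 of control week 1, 0 of them members. After subtraction of group means, 7 of 12 pairs of same-numbered high-fat and control libraries correlated above 0.1 (range −0.51 to 0.453). Differently numbered pairs were not compared, so these values cannot tell whether the replicate numbers pair the libraries. The replicate block left 0 members called in each comparison, with miR-29b-3p at −0.62 (adjusted p = 0.0598) and miR-29c-3p at −0.48 (adjusted p = 0.0552). Under library totals alone the median of all miRNAs at week 3 between the diets was −0.133 in place of −0.054.

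Signs turned as follows, on estimates that passed no test, and the cause was not tested. For miR-29c-5p the diet effect was 0.03 at day 1 with muscle and leukocyte covariates, and at week 1 it was 0.02 with RLE size factors, library totals or DESeq2 and 0.01 with a mean CPM of at least 10; its change from day 1 to week 3 in control libraries was −0.06 with covariates and −0.03 in limma-voom. With covariates the change of miR-29a-3p was 0.19 in high-fat libraries, 0.12 in control libraries and 0.16 over both. In high-fat libraries the change of miR-29a-5p was −0.01 with totals and −0.13 in limma-voom, and that of miR-29b-2-5p −0.01 with RLE factors, −0.08 with totals, −0.03 with covariates and −0.06 in limma-voom. With 5 counts added the ratio of the Mir29a arms between diets at week 1 was −0.06. Without the 3 libraries with the highest muscle markers, the week 1 diet differences of miR-29b-3p and miR-29c-3p against miR-29a-3p were −0.13 and −0.02, and the week 3 change of the Mir29c arms was −0.74 (adjusted p = 0.061).

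With 1 library left out, the week 3 change over both diets ranged from −0.56 to −0.47 for miR-29b-3p to miR-29a-3p, −0.42 to −0.33 for miR-29c-3p to miR-29a-3p and −1 to −0.74 for the Mir29c arms. Diet differences of ratios ranged from −0.11 to 0.31 (Mir29a arms, week 1), −0.05 to 0.13 and −0.12 to 0.28 (miR-29b-3p to miR-29a-3p, day 1 and week 1), −0.07 to 0.07 (miR-29c-3p to miR-29a-3p, day 1), and −0.18 to 0.15 and −0.4 to 0.11 (Mir29c arms, day 1 and week 1). Member diet effects ranged from −0.21 to 0.02 (miR-29a-3p, week 3), −0.18 to 0.11 and −0.47 to 0.09 (miR-29b-3p, day 1 and week 1), −0.31 to 0.12 (miR-29c-3p, week 1), and −0.23 to 0.03, −0.1 to 0.15 and −0.02 to 0.2 (miR-29c-5p, day 1, week 1 and mean). Changes to week 3 ranged from −0.12 to 0.19 (miR-29a-5p), −0.08 to 0.73 (miR-29b-1-5p) and −0.19 to 0.15 (miR-29b-2-5p) in high-fat libraries, −0.22 to 0.42 (miR-29c-5p) in control libraries and −0.03 to 0.14 (miR-29b-2-5p) and 0.19 to 0.51 (miR-29c-5p) over both.

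With 2 to 30 counts per library, miR-29b-1-5p allowed no firm estimate, and neither it nor miR-29b-2-5p gave a value with a mean CPM of at least 10.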
